A study of Homo sapiens with 17 samples.

Results

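The mRNAs of centromere proteins, kinesins and the mitotic checkpoint were described as a set chosen by gene name alone. The rule took protein-coding genes named CENP and a letter or KIF and a number, together with BUB1, BUB1B, BUB3, MAD1L1, MAD2L1, TTK, AURKA, AURKB, PLK1, PLK4, CCNB1, CCNB2, CDC20, NDC80, NUF2, SPC24 and SPC25. It found 72 of the 13473 protein-coding genes among 18869 genes with values. The kinesin genes KIF2B, KIF4B, KIF12, KIF19, KIF25 and KIF28P were not listed. The rule reads names and no value.

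The study asked which transcripts are held by the nuclear poly(A) binding protein (PABPN) and by the cytoplasmic one (PABPC), and how far ribosomes had contacted them in each state. HEK293T cells, an embryonic kidney line, stably carried a doxycycline-inducible RPS2-STAMP construct, in which the small ribosomal subunit protein RPS2 is fused to the cytidine deaminase APOBEC1 and leaves C-to-U edits on RNAs that the ribosome touches, or Control-STAMP, which is APOBEC1 alone. Every culture received doxycycline at 50 ng/ml for 24 h and was crosslinked in 0.1% formaldehyde, and each lysate was split for the PABPN and PABPC immunoprecipitations (IPs). The authors describe the IPs and their Input as taken from the cytoplasmic part of fractionated cells, a step that the sample labels do not name. Read this way, PABPN values concern RNA held by PABPN outside the nucleus, and the Input is not total RNA. Of the 17 samples, the Input, the PABPC IP and the PABPN IP of RPS2-STAMP cells had 3 each, the Input and the PABPN IP of Control-STAMP cells had 3 each, and the Control-STAMP PABPC IP had 2.

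For each gene and fraction the authors gave a normalized EPKM, the edit count scaled by gene length and reads in RPS2-STAMP after subtraction of editing in the control, and an average TPM, the transcript level scaled by length and library. Both measures are scaled by length, so genes can be set beside each other. Every value is pooled over replicates, so no spread or test can be given, the reads behind a value are not shown, and each difference below is a description of these pooled values. An EPKM of 0 is a listed value, and no fold of a single gene is given against it. It does not show that an RNA was unedited, since the treatment of values below 0 is not stated. The counts of EPKM folds between the IPs add a pseudocount and include genes at 0. The comparison took genes whose TPM reached 5 in each IP, which kept 9607 protein-coding genes and 58 of the 72 members. Just inside were KIF20B and MAD1L1, with 5.91 and 5.71 in the PABPC IP, and just outside CENPF and KIF21A, with 4.63 and 4.32 there. The filter was not neutral. Of the 14 members left out, 10 reached a TPM of 5 in the PABPN IP and missed it only in the PABPC IP, 4 missed it in both and 0 missed it only in the PABPN IP, so the counts of binding over the 58 are followed by those over all 72. Of the 3866 protein-coding genes left out, 1218 missed it only in the PABPC IP, 2162 in both and 89 only in the PABPN IP, and 397 had no TPM.

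A kinetochore is built on centromeric chromatin that contains the histone variant CENP-A. The constitutive centromere associated network (CCAN, CENP-C and most other lettered subunits) binds this chromatin throughout the cell cycle and recruits the NDC80 complex, which grips microtubules in mitosis. Kinetochores without proper attachment are read by the spindle assembly checkpoint (BUB1, BUBR1 from BUB1B, BUB3, MAD1, MAD2 and the kinase MPS1 from TTK), which holds back CDC20, the activator of the anaphase-promoting complex, and so preserves cyclin B. Kinesins are microtubule motors. Some build the spindle, move chromosomes or complete cytokinesis, while others carry cargo along axons, cytoplasmic microtubules and cilia. Since each sample pooled many cells, the number of cells in mitosis and the amount of an mRNA per cell cannot be told apart.

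A further property that the naming rule did not use lies in the promoters. Many genes expressed in G2 and mitosis carry a cell cycle genes homology region (CHR), with the core TTTGAA, and CCAAT boxes near their start site. RefSeq promoter windows (GRCh38.p14, 250 bases before to 50 after the first listed start of a gene) were matched for 60 of the 72 members, and CENPM is among the 12 without one. TTTGAA on either strand was found in 23 of the 60 (38.3%), beside 12.1% of 15843 protein-coding promoters of the same length, and CCAAT on either strand in 32 (53.3%, beside 36.4%). CCAAT was at least as common in a pair of other lists, in 22 of 29 partner promoters (75.9%) and 20 of 34 DNA replication promoters (58.8%), and less so in the anaphase-promoting complex, in 6 of 16 (37.5%). The groups differed: TTTGAA was in 8 of the 12 spindle kinesins, 4 of 6 kinase, cyclin and CDC20 promoters, 3 of 4 of the NDC80 complex, 2 of 4 checkpoint genes, 4 of 13 of the kinetochore foundation, 1 of 4 other CENP genes and 1 of 17 transport and ciliary kinesins. It was in 14 of 29 partner promoters, 3 of 16 of the anaphase-promoting complex and 0 of 34 DNA replication promoters. Thus the kinesins that share a fold but not a mitotic role differed in this motif. A match is a string of letters and does not show that a factor binds there.

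The stretches around the motif are shown for the 4 members with the highest Input TPM that have it whole before the start site, 5′ to 3′ on the strand of the gene, with TTTGAA and any CCAAT in capitals. They come from chr1:43358886-43358951, plus strand for CDC20, chr15:59105087-59105145, plus strand for CCNB2, chr16:23678830-23678888, plus strand for PLK1 and chr2:26786008-26786055, plus strand for CENPA, and the motif begins 65, 29, 29 and 18 bases before the start site.
CDC20: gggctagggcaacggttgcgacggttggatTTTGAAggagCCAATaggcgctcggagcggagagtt
CCNB2: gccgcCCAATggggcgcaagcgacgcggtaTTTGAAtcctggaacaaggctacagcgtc
PLK1: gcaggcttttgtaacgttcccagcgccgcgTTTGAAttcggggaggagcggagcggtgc
CENPA: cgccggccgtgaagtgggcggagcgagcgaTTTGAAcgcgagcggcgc
These 4 abundant mRNAs were on the PABPC side in the TPM ratio of the IPs described below, but they do not stand for the rest. Of the 23 members with TTTGAA, 8 were on the PABPC side and 15 on the PABPN side, with a median of -0.62, and of the 37 without it 14 and 23, with a median of -0.27. These members were taken without the TPM filter, and the 13017 protein-coding genes with a TPM above 0 in every fraction had a median of -0.21. Transport and ciliary kinesins made up 1 of the 23 and 16 of the 37.

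CENPM, a subunit of the CCAN that binds CENP-H, CENP-I and CENP-K, had the highest Input EPKM of the 72 members. The gene (ENSG00000100162) lies at chr22:41938737-41947152 (hg38, minus strand), and its canonical transcript has 6 exons and a coding length of 540 nucleotides. Its EPKM was 0.614 (Input), 0.0670 (PABPC IP) and 0 (PABPN IP). The Input value was 1.87 times that of the next member, KIF22, and 9.17 times its own value in the PABPC IP. It ranked 78 among the 9607 protein-coding genes, above 99.2% of them. In the PABPC IP its EPKM was above that of 60.5% of these genes. Thus the high Input value had no counterpart in either IP.

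The transcript level of CENPM did not follow the same order. Its TPM was 40.9 (Input), 111 (PABPC IP) and 84.9 (PABPN IP). Per 100 TPM, CENPM carried the most Input editing of the 58 members, whose median was 0.135 EPKM, but 0.0605 in the PABPC IP, where their median was 0.126. A log2 ratio of TPM values, centred on the median of the 9607 protein-coding genes, was used to express binding. On this scale CENPM was at -0.08 for PABPN IP over Input, 0.45 for PABPC IP over Input and 0.58 for PABPC IP over PABPN IP, so it leaned toward PABPC. CENPM provided 17.3% of the Input EPKM summed over the 58 members. Without it their mean was 0.0513 in place of 0.0610.

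The members most like CENPM in their distribution over the Input and the IPs (Euclidean distance over the log2 TPM of the 3 fractions, each gene centred on its mean, over the 58 members) were CENPA at 0.0500, CENPV at 0.108 and CENPU at 0.110. Their EPKM was not alike. CENPA, the centromeric histone H3 variant, had an EPKM of 0.0288 (Input), 0 (PABPC IP) and 0.372 (PABPN IP), which made it the highest member for the PABPN IP, where CENPM was listed at 0. Part of CENPA overlaps SLC35F6 on the same strand, and edits there cannot be told apart. CENPV, a centromere protein outside the CCAN, had 0.172 (Input), 0.0868 (PABPC IP) and 0.0498 (PABPN IP). CENPU, a CCAN subunit, had an EPKM above 0 in the PABPN IP alone, at 0.0941. The neighbour downstream of CENPM on the same strand, TNFRSF13C, which encodes the BAFF receptor of B cells, starts 11930 bases beyond the end of CENPM. Its TPM was 1.43 (Input), 2.51 (PABPC IP) and 13.3 (PABPN IP), or 3.51%, 2.27% and 15.6% of the CENPM level, and its EPKM was 0.0103 (Input), 0 (PABPC IP) and 0.0260 (PABPN IP). In a PABPN IP from total cell lysate, the authors held that reads over TNFRSF13C likely came from CENPM transcripts without proper termination. Whether this applies to the values here was not tested.

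**Figure D1:**
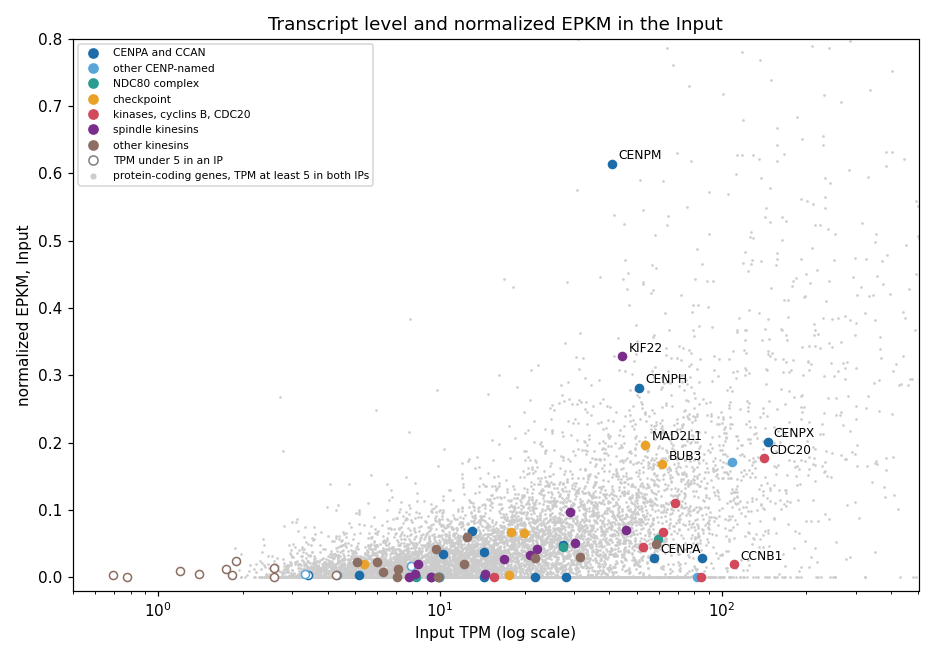
Normalized EPKM in the Input (y axis) against Input TPM (x axis, log scale) for the members, coloured by role, and for protein-coding genes whose TPM reached 5 in each IP (grey; 138 of 9607 lie outside the axes). CENPM stands at an EPKM of 0.614 with a TPM of 40.9, while several members with a higher TPM, CCNB1 among them at 0.0193, lie far below it.

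Over the 58 members, editing was left after subtraction of the control about as often as in other genes. An EPKM above 0 was listed for 44 members for the Input, 45 (PABPC IP) and 42 (PABPN IP), that is 75.9%, 77.6% and 72.4%, beside 78.1%, 82.6% and 72.9% of protein-coding genes. Some of these values were small. Above 0.01 EPKM the members' shares were 67.2% (Input), 72.4% (PABPC IP) and 65.5% (PABPN IP), and those of protein-coding genes were not taken. Above 0 in every fraction were 28 of the 58 (48.3%, against 50.5% of protein-coding genes), and none was at 0 throughout. The median EPKM was 0.0288 (Input), 0.0377 (PABPC IP) and 0.0445 (PABPN IP). For protein-coding genes these medians were 0.0273, 0.0501 and 0.0334, so the members' median was below theirs in the PABPC IP and above it in the PABPN IP.

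The order of the IPs in the members' medians was not that of protein-coding genes, but the highest fraction of each gene was spread much as in those genes. PABPC IP minus PABPN IP gave -0.00685 EPKM between the members' medians and 0.0167 for protein-coding genes. The difference for the members was small, and the median of the differences taken gene by gene had the other sign, at 0.00779. The PABPC IP was the highest fraction for 26 of the 58 (44.8%) and for 43.5% of the 9408 protein-coding genes above 0 in any fraction, and the PABPN IP for 17 (29.3%) and 29.3%. Thus the sign of the small difference depended on how it was taken. With a pseudocount of 0.01 EPKM, 18 members had a PABPC IP value 2-fold or more above that of the PABPN IP, or 31.0%, beside 36.3% of protein-coding genes, and 15 the reverse, or 25.9%, beside 21.1%. Many of these members, CENPM and CENPA among them, were at 0 in the other IP, so the size of their fold is set by the pseudocount. Across the 58 genes, which are not independent replicates, Spearman's rho between the EPKM of the PABPC IP and of the PABPN IP was 0.12, and over protein-coding genes 0.19. Single members therefore had to be read fraction by fraction.

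**Figure D2:**
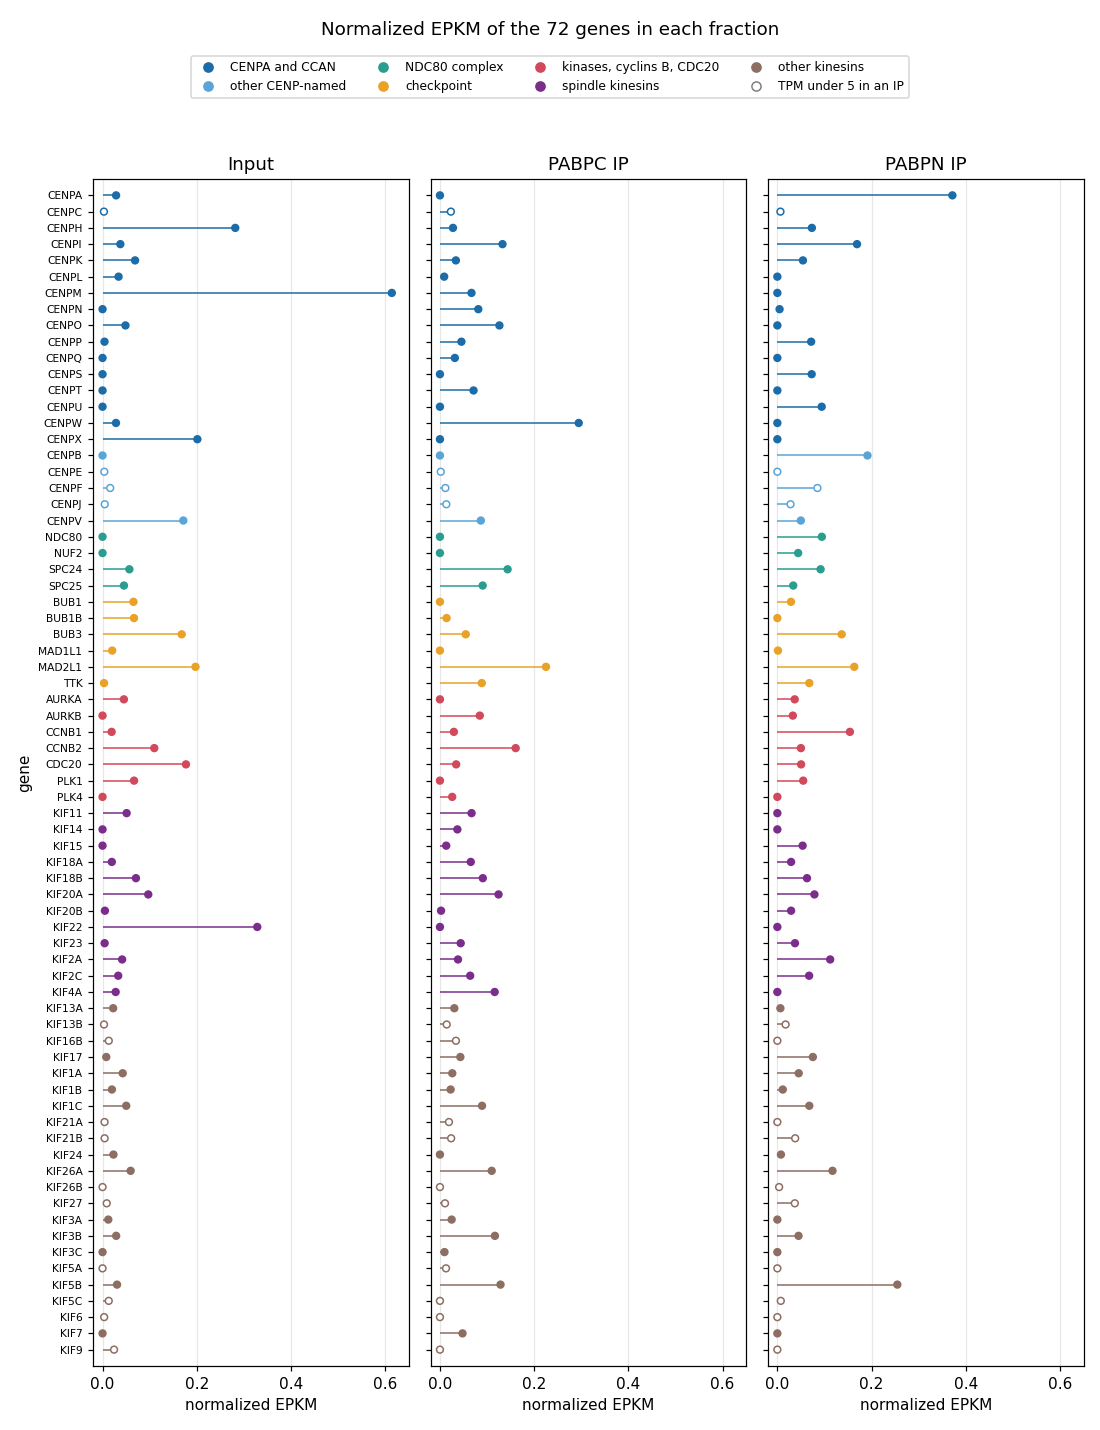
Normalized EPKM (x axis) of each of the 72 genes (y axis, grouped by role) in the Input, the PABPC IP and the PABPN IP, as pooled by the authors. CCAN is the constitutive centromere associated network, and open circles are genes with a TPM under 5 in an IP. The highest value lies with a different gene in each fraction: CENPM in the Input (0.614), CENPW in the PABPC IP (0.295) and CENPA in the PABPN IP (0.372).

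Binding to the poly(A) binding proteins was compared next. For PABPC IP over Input, 23 of the 58 members had a centred log2 ratio below -0.5, or 39.7%, beside 18.1% of protein-coding genes, and 2 were above 0.5, or 3.45%, beside 8.37%. The members above were CENPX and CENPV. For PABPN IP over Input, 12 were above 0.5 (20.7%, beside 24.5%) and 9 below -0.5 (15.5%, beside 21.6%). Set directly against each other as PABPC IP over PABPN IP, 26 were below -0.5, on the side of PABPN (44.8%, beside 31.5%), and 14 were above 0.5, on the side of PABPC (24.1%, beside 30.4%). The members' median ratios were -0.01 for PABPN IP over Input, -0.26 for PABPC IP over Input and -0.18 for PABPC IP over PABPN IP. With all 72 members counted, 32 lay below -0.5 for PABPC IP over Input (44.4%) and 2 above 0.5 (2.78%), where the 13017 protein-coding genes with a TPM above 0 in every fraction gave 23.6% and 7.51%. For PABPN IP over Input, 19 of the 72 were above 0.5 (26.4%, beside 33.5%) and 9 below -0.5 (12.5%, beside 17.8%). For PABPC IP over PABPN IP, 37 lay below -0.5 (51.4%) and 15 above 0.5 (20.8%), and their median was -0.57. Among the 13017 genes these shares were 41.0% and 24.9%, and their median was -0.21. The size of the members' shift depended on which of them were taken, since their median was -0.03 at a TPM of at least 10 and -0.05 without the transport kinesins.

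**Figure D3:**
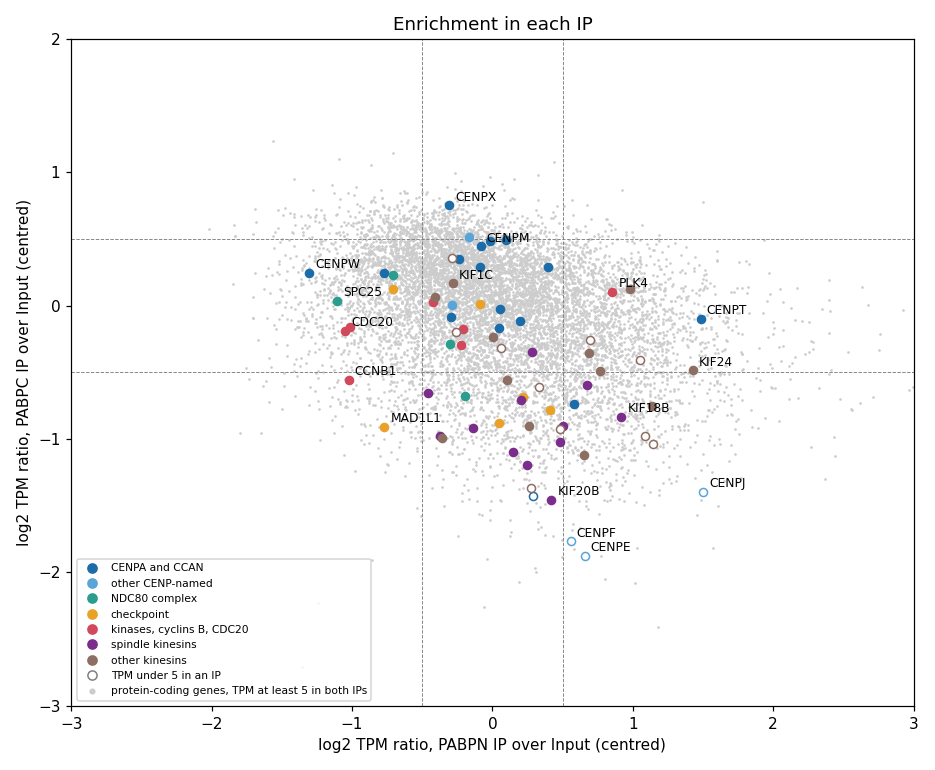
Centred log2 TPM ratio of PABPC IP over Input (y axis) against that of PABPN IP over Input (x axis) for the 72 genes and, in grey, protein-coding genes whose TPM reached 5 in each IP (40 of 9607 lie outside the axes). Dashed lines mark 0.5 and -0.5, and open circles are members with a TPM under 5 in an IP. Of the 12 spindle kinesins, 11 lie below the lower horizontal line, beside 18.1% of protein-coding genes. Of the 15 CENP-A and CCAN genes, 13 lie between the horizontal lines, as do 7060 of the 9607 protein-coding genes.

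The kinetochore foundation, CENPA and the CCAN, had a median on the side of PABPC. Of 16 genes, 15 passed the filter, and their median ratio of PABPC IP over PABPN IP was 0.42, with 6 above 0.5 (40.0%, beside 30.4% of protein-coding genes) and 2 below -0.5 (13.3%, beside 31.5%). Over all 16 the counts were 6 (37.5%, beside 24.9% of the 13017 genes) and 3 (18.8%, beside 41.0%). Short genes in general lay on the PABPC side, with a median of 0.28 over protein-coding genes below 2074.5 coding nucleotides. The median coding length of the 15 was 807 nucleotides. The group thus differed from other genes more in how few lay on the PABPN side. CENPW, which pairs with CENP-T in a histone-like complex, was highest at 1.59. Its TPM was 85.4 (Input), 201 (PABPC IP) and 76.1 (PABPN IP), its ratio of PABPN IP over Input was the lowest of the group at -1.30, and its EPKM in the PABPC IP, 0.295, was the highest of all members, beside 0.0285 in the Input and 0 in the PABPN IP. CENPX, the partner of CENP-S, had the highest TPM, 146 (Input), 488 (PABPC IP) and 259 (PABPN IP), and the highest ratio of PABPC IP over Input, 0.75. Its EPKM of 0.201 was confined to the Input. Hence the shortest subunits of the network leaned to PABPC, yet only one of them carried its editing there.

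CENPT stood at the other end of the same network. This DNA-binding subunit, which also recruits the NDC80 complex, had a TPM of 9.29 (Input), 17.2 (PABPC IP) and 57.1 (PABPN IP), the highest ratio of PABPN IP over Input among the 58 members at 1.48, and the lowest ratio of PABPC IP over PABPN IP among the 15 passing genes of its group at -1.54. Its EPKM was 0.0713 in the PABPC IP and 0 elsewhere. CENPI, which is on the PABPN side as well at -1.27 and has the lowest ratio of PABPC IP over Input among the 15 at -0.74, had an EPKM of 0.0378 (Input), 0.133 (PABPC IP) and 0.169 (PABPN IP). The CENP-H, CENP-I, CENP-K and CENP-M subunits form 1 module of the network. CENPH came next to CENPM and KIF22 in the Input with an EPKM of 0.282 and leaned to PABPC at 1.06, while CENPK was near the centre at -0.06 with an EPKM of 0.0691 (Input), 0.0338 (PABPC IP) and 0.0543 (PABPN IP). So the mRNAs of this module lay on both sides. CENPC, the scaffold that links centromeric chromatin to the outer kinetochore, failed the filter in the PABPC IP, had a TPM of 9.11 in the PABPN IP, and its ratio was -1.67. CENPP, whose Input TPM of 5.17 was the lowest of the 15, was at -0.27. CENPQ, CENPS, CENPT, CENPU and CENPN were listed at 0 in the Input.

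Among the other genes with a CENP name, 2 of 5 passed the filter. CENPB, which binds a repeat in centromeric DNA, and CENPV were on the PABPC side at 0.34 and 0.73. CENPB had an EPKM above 0 in the PABPN IP alone, at 0.191, although its TPM there was 147 and 162 in the PABPC IP. The 3 genes that failed had the lowest ratios of all 72 members. The centriolar gene CENPJ was at -2.85, CENPE, a kinesin motor of the kinetochore, at -2.49, and CENPF, a large protein of the outer kinetochore, at -2.28. CENPF missed the filter by little, with a TPM of 7.93 (Input), 4.63 (PABPC IP) and 25.7 (PABPN IP), and its EPKM was 0.0163 (Input), 0.0115 (PABPC IP) and 0.0850 (PABPN IP).

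The subunits of the NDC80 complex fell into 2 pairs. SPC24 and SPC25, the short subunits that anchor the complex to the kinetochore, leaned to PABPC at 0.98 and 1.19, and SPC25 had a ratio of PABPN IP over Input of -1.10. The EPKM of SPC24 was 0.0570 (Input), 0.144 (PABPC IP) and 0.0918 (PABPN IP), and that of SPC25 was 0.0454 (Input), 0.0907 (PABPC IP) and 0.0337 (PABPN IP). NDC80 and NUF2, which bind the microtubule, were nearer the centre at -0.44 and 0.06. Neither had an EPKM above 0 outside the PABPN IP, where their values were 0.0944 and 0.0441, at TPM values of 15.8 and 17.7.

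All 6 checkpoint genes passed the filter and were above 0 in the Input. MAD2L1, which encodes the MAD2 protein of the inhibitory complex, was the most evenly edited member, with an EPKM of 0.197 (Input), 0.225 (PABPC IP) and 0.163 (PABPN IP), and leaned to PABPC at 0.87, with the highest ratio of PABPC IP over Input in the group at 0.12. BUB3, the small adaptor of BUB1 and BUBR1, had 0.168 (Input), 0.0547 (PABPC IP) and 0.137 (PABPN IP) and was near the centre at 0.15. BUB1 and BUB1B lay on the PABPN side at -0.85 and -0.88 with an Input EPKM of 0.0657 and 0.0668, and BUB1 was at 0 in the PABPC IP while BUB1B was at 0 in the PABPN IP. TTK was lowest at -1.15 and highest for PABPN IP over Input at 0.41, with an EPKM of 0.00313 (Input), 0.0888 (PABPC IP) and 0.0678 (PABPN IP). MAD1L1, the binding partner of MAD2, was low in transcript level, with a TPM of 5.39 (Input), 5.71 (PABPC IP) and 6.96 (PABPN IP), and was the lowest of the group in both ratios over the Input, -0.77 with PABPN and -0.91 with PABPC.

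The mitotic kinases, the B cyclins and CDC20 had a median Input TPM of 68.2, the highest of the groups with more than 2 passing genes, and leaned away from PABPN. Their median ratio was -0.42 for PABPN IP over Input and 0.49 for PABPC IP over PABPN IP. CDC20 was highest at 0.91, with a TPM of 141 (Input), 246 (PABPC IP) and 149.8 (PABPN IP) and an EPKM of 0.177 (Input), 0.0344 (PABPC IP) and 0.0504 (PABPN IP). It was the lowest of the group for PABPN IP over Input at -1.05. CCNB2 followed at 0.89 and had the highest EPKM of the group in the PABPC IP, 0.161, beside 0.110 in the Input. CCNB1, at 0.51, had the highest EPKM of the group in the PABPN IP, 0.154, with only 0.0193 in the Input at a TPM of 111, and the lowest ratio of PABPC IP over Input, -0.55. Thus the 2 B cyclins were alike in PABPN IP over Input, at -1.02 and -1.01, and had opposite orders of EPKM between the IPs. PLK1 and AURKA, kinases of spindle assembly, were at 0 in the PABPC IP and had 0.0549 and 0.0368 in the PABPN IP. AURKB, the kinase of the chromosomal passenger complex, was at 0 in the Input and had 0.0846 in the PABPC IP. PLK4, the kinase of centriole duplication, was the single gene of the group below -0.5, at -0.71. It was highest in both ratios over the Input at 0.85 and 0.10, and its EPKM was above 0 in the PABPC IP alone, at 0.0260.

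The spindle and cytokinesis kinesins were on the side of PABPN almost throughout. All 12 passed the filter, 11 had a ratio of PABPC IP over PABPN IP below -0.5, beside 31.5% of protein-coding genes, and the median was -1.21. Long genes in general lay on this side, with a median of -0.84 over protein-coding genes above 2074.5 coding nucleotides. The exception was KIF20A, a motor of the central spindle, at -0.15. It was lowest for PABPN IP over Input at -0.46, and it also had the highest EPKM of the group in the PABPC IP, 0.124, beside 0.0971 in the Input and 0.0787 in the PABPN IP. KIF20B was lowest at -1.83, and at -1.46 for PABPC IP over Input, with a TPM of 8.18 (Input), 5.91 (PABPC IP) and 24.1 (PABPN IP). KIF18B, a kinesin that regulates microtubule plus ends, had the highest ratio of PABPN IP over Input, 0.92, and a TPM of 45.8 (Input), 51.1 (PABPC IP) and 191 (PABPN IP). The group's low ratios came more from PABPC than from PABPN: the median was -0.91 for PABPC IP over Input and 0.26 for PABPN IP over Input.

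The EPKM of the spindle kinesins was close to that of other genes. In the PABPC IP 11 of the 12 were above 0, beside 82.6% of protein-coding genes, and in the PABPN IP 8 were, beside 72.9%. The median EPKM was 0.0541 and 0.0333, nearly the 0.0501 and 0.0334 of protein-coding genes. Per 100 TPM the medians were 0.162 (Input), 0.236 (PABPC IP) and 0.110 (PABPN IP), beside 0.161, 0.138 and 0.0704 for protein-coding genes, so they were higher per transcript in the IPs and not in the Input. Protein-coding genes above 2074.5 coding nucleotides had 0.154, 0.233 and 0.0844, so in the PABPC IP the group was close to long genes in general. KIF22, a chromosome-binding motor, was the gene at 0 in the PABPC IP, and at 0 in the PABPN IP too, although its Input EPKM of 0.329 was second among all members. Its TPM was 44.5 (Input), 69.2 (PABPC IP) and 119 (PABPN IP). KIF4A, another chromosome-associated motor, had 0.116 (PABPC IP) and 0 (PABPN IP). KIF2A, a microtubule depolymerase, had the highest EPKM of the group in the PABPN IP, 0.112. KIF11, the motor that pushes spindle poles apart, had 0.0512 (Input), 0.0671 (PABPC IP) and 0 (PABPN IP).

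The transport, ciliary and other kinesins were lower in level. Of 22, 12 passed the filter, and the median Input TPM of the 12 was 9.80. Of these 12, 9 lay below -0.5 for PABPC IP over PABPN IP (beside 31.5% of protein-coding genes) and 1 above 0.5 (beside 30.4%), with a median of -0.90. Over all 22 the counts were 16 and 2, beside 41.0% and 24.9% of the 13017 genes, and the median was -0.95. KIF24, a ciliary kinesin of the mother centriole, was lowest among the 12 at -1.87 and highest for PABPN IP over Input at 1.43. KIF7, which acts in Hedgehog signalling at the cilium, was next at -1.85. KIF3C, a neuronal motor, was highest of the 12 at 0.52 and lowest for PABPN IP over Input at -0.41, and KIF1C, a cargo motor of the cell periphery, was at 0.50, highest of the 12 for PABPC IP over Input at 0.17, with a TPM of 58.4 (Input), 130.2 (PABPC IP) and 106 (PABPN IP) and an EPKM of 0.0503 (Input), 0.0893 (PABPC IP) and 0.0678 (PABPN IP).

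KIF5B, the ubiquitous conventional kinesin heavy chain, had the second highest EPKM of all members in the PABPN IP. Its EPKM was 0.0308 (Input), 0.129 (PABPC IP) and 0.255 (PABPN IP), and its TPM was 31.5 (Input), 42.4 (PABPC IP) and 74.4 (PABPN IP). KIF26A, a kinesin without motor activity, had the highest Input EPKM of the 12 at 0.0596, beside 0.110 (PABPC IP) and 0.117 (PABPN IP), and a ratio near the centre at -0.19 despite a coding length of 5646 nucleotides. KIF1B, a carrier of synaptic vesicle precursors, had the lowest ratio of PABPC IP over Input among the 12 at -1.12. Of the 10 genes left out, the neuronal heavy chain KIF5A was at -2.13 and KIF21A at -2.02, whereas KIF9 was at 0.69 with a TPM under 5 in both IPs, at 4.81 (PABPC IP) and 3.42 (PABPN IP). The other genes outside were KIF5C, KIF6, KIF13B, KIF16B, KIF21B, KIF26B and KIF27. The member with the lowest Input TPM was KIF6, at 0.696.

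The position of a member between the IPs followed its coding length. No protein sequences were given for these genes, so the coding length of the canonical transcript (GENCODE release 44) stands for protein length. Across the 58 members, Spearman's rho of coding length with the ratio of PABPC IP over PABPN IP was -0.76, with PABPC IP over Input -0.75 and with PABPN IP over Input 0.49. For all 72 members the first value was -0.77. The same relation ran through the protein-coding genes at large, with values of -0.62, -0.66 and 0.41 over 9601 genes with a coding length. Coding length goes with other properties of a gene, and across the 58 members the number of exons gave a rho of -0.74 with PABPC IP over PABPN IP, the intronic length -0.64 and the Input TPM 0.64. With PABPC IP over Input the number of exons gave -0.80, stronger than the -0.75 of coding length. The separate parts of these properties were not tested, and the TPM columns add intronic to exonic reads.

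Divided at the median coding length of the 58 members, 2074.5 nucleotides, 21 of the 29 shorter members were above 0 in the ratio of PABPC IP over PABPN IP, and 2 of the 29 longer ones were. The medians were 0.44 and -0.999, and that of all 43 longer ones among the 72 was -1.15. Protein-coding genes divided at the same length had medians of 0.28 over 7185 shorter and -0.84 over 2416 longer genes, and 62.3% and 13.5% of them were above 0. The 2 longer members above 0 were KIF1C and KIF3C. Over all 72 members, 4 of the 43 longer ones were above 0, with KIF9 at 0.69 and KIF6 at 0.10 added. Of the shorter members, CENPT was farthest below 0, with a coding length of 1683 nucleotides. The divide between small centromere subunits and long motors thus ran the same way as that between short and long protein-coding genes, and was somewhat wider.

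**Figure D4:**
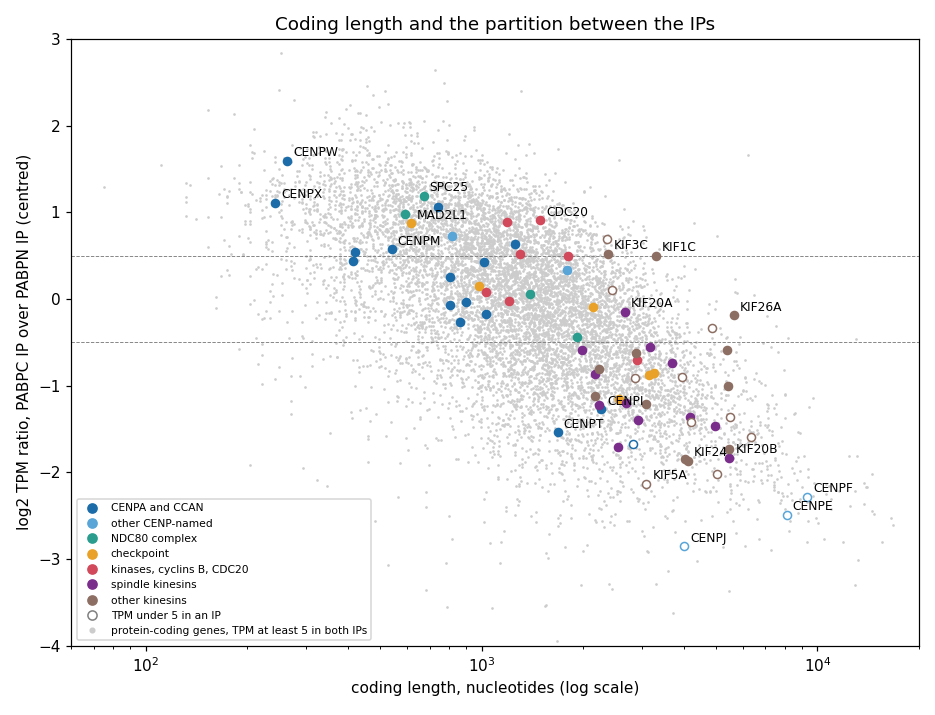
Centred log2 TPM ratio of PABPC IP over PABPN IP (y axis) against coding length (x axis, log scale) for the 72 genes, coloured by role, and for 9601 protein-coding genes (grey). Dashed lines mark 0.5 and -0.5, and open circles are members with a TPM under 5 in an IP. CENPW and CENPX lie at the upper left, at 1.59 and 1.11, and CENPE and CENPF at the lower right, at -2.49 and -2.28.

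EPKM itself was less tied to length. Across the 58 members its rho with coding length was -0.22 (Input), -0.06 (PABPC IP) and -0.12 (PABPN IP). In the Input it went with the transcript level, with a rho of 0.54 between Input EPKM and Input TPM, and in the IPs the corresponding values were 0.21 and 0.22. Since EPKM is not divided by transcript level, it was also taken per 100 TPM. The members' medians were then 0.135 (Input), 0.126 (PABPC IP) and 0.0606 (PABPN IP), close to the 0.161, 0.138 and 0.0704 of protein-coding genes. In the PABPC IP the longer members had a median of 0.253 and the shorter ones 0.0443, and among protein-coding genes the same division gave 0.233 and 0.107. In the PABPN IP the members' values were 0.0569 and 0.0673, and those of protein-coding genes, in the other order, 0.0844 and 0.0651. In the Input they were 0.163 and 0.0958 for the members, but 0.154 and 0.163 for protein-coding genes. Across the 58 members, Spearman's rho of coding length with EPKM per 100 TPM was 0.08 (Input), 0.40 (PABPC IP) and 0.02 (PABPN IP). Over protein-coding genes it was -0.05, 0.27 and 0.06. Per transcript, then, longer genes carried more editing in the PABPC IP, among members and protein-coding genes alike. In the Input the members' medians differed by length, but the rho was weak. The checkpoint genes had the highest group median in the Input, 0.349, and the kinases, cyclins and CDC20 a low one in the PABPC IP, 0.0197.

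Genes that work with these members gave a reference. Of 36 partners in the kinetochore, the passenger complex and the spindle, 35 passed the filter. Their median ratio of PABPC IP over PABPN IP was 0.01, with 9 above 0.5 (25.7%, beside 30.4% of protein-coding genes) and 11 below -0.5 (31.4%, beside 31.5%). Across the 35 genes Spearman's rho of coding length with this ratio was -0.83. PTTG1, the securin gene, was highest at 1.38 and KNTC1, of the ROD and ZW10 complex, lowest at -2.54. PMF1 and MIS12, of 1 complex and both with 615 coding nucleotides, were at 1.32 and -0.77. BIRC5, which encodes survivin, was at 1.13 with an EPKM of 0.111 (Input), 0.0198 (PABPC IP) and 0.151 (PABPN IP). HJURP, the chaperone that deposits CENP-A, was on the PABPN side at -1.25, whereas CENPA was on the PABPC side at 0.54. Of the 17 genes of the anaphase-promoting complex, its E2 enzymes and FZR1, all passed, and 6 were above 0.5 (35.3%) and 5 below -0.5 (29.4%), near the same shares of protein-coding genes. UBE2S was highest at 1.40 and ANAPC2, the cullin subunit, lowest at -1.76.

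The 40 DNA replication genes, another set that proliferating cells use, were like the members in 1 ratio and unlike them in other values. Below -0.5 for PABPC IP over Input were 16 of the 40 (40.0%), beside 39.7% of the 58 members and 31.4% of the partners, so the low ratio was not particular to the members. Their median EPKM was 0.0591 (Input), 0.0920 (PABPC IP) and 0.0323 (PABPN IP), so that the PABPC IP was above the PABPN IP by 0.0597, where the members gave -0.00685 and protein-coding genes 0.0167. Of the 40, 21 were below -0.5 for PABPN IP over Input (52.5%), beside 15.5% of the 58 members and 21.6% of protein-coding genes, so this contrast lay in the replication genes. PCNA, the sliding clamp, had the highest ratio of PABPC IP over PABPN IP at 1.41 but an EPKM of 0.168 in the Input and 0 in both IPs. POLE, the catalytic subunit of the leading strand polymerase, had the lowest at -1.89. These differences between lists have no test.

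Markers of the cell line were present for the most part. VIM had an Input TPM of 184, NEFL 26.9, KRT18 24.8 and INA 24.1, whereas KRT8 was at 2.16 and the kidney transcription factor PAX2 at 0.797. Of the markers of other cell types, ALB, PTPRC, HBB, CD3E and INS were not listed, and the collagen gene COL1A1 was at a TPM of 1.90 (Input), 2.15 (PABPC IP) and 4.42 (PABPN IP). RPS2, part of the fusion construct, had a TPM of 8171 (Input), 27182 (PABPC IP) and 10493 (PABPN IP) and the highest level of any compared protein-coding gene in the PABPC IP.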

How the data were processed

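The authors aligned reads of stranded, ribosomal RNA-depleted libraries to hg38 with STAR and called C-to-U edits. The deposited normalized EPKM is a signal from which the authors subtracted editing in the control condition; how replicates were pooled and values below 0 treated is not stated. The deposited TPM values are averages per fraction, exonic plus intronic, from featureCounts 2.0.2 on a custom annotation without overlapping regions and readthrough transcripts; the samples averaged are not stated. The files hold no counts, so the reads behind each value are unknown; library sizes in the authors' methods were not used here.

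Samples were grouped by construct and IP. The comparison took genes whose TPM reached 5 in each IP. Log2 TPM ratios were centred on protein-coding genes, with thresholds of 0.5 and -0.5, and a pseudocount of 0.01 was used for EPKM folds. All members could be named; other genes were named as extremes or as examples of set lists. Members and lists were chosen with earlier results of these data known, and the rho of the partner list was added after its values were seen. Gene models came from GENCODE release 44, and coding length stood in for protein length, a change to the design. The custom annotation of the authors was not used here. Python 3.11.15, pandas 2.3.3 and SciPy 1.17.1 were used, and the steps were tested on simulated data. Other filters, thresholds, pseudocounts and centring were tried.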

Additional observations from a re-analysis of the deposited data

Results flagged for a closer look

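Among the values that enter none of the comparisons are 2 readthrough genes that hold a member's name. CENPS-CORT, which joins CENPS to the neighbouring CORT, had an EPKM of 0.0103 (Input), 0.0603 (PABPC IP) and 0.0166 (PABPN IP) after subtraction of the control, and no TPM. CENPS itself lies wholly within it and had 0.0728 in the PABPN IP and 0 in the other fractions. BUB1B-PAK6 had 0.00347 in the Input, 0.168 in the PABPN IP and 0 in the PABPC IP, where BUB1B had 0.0668, 0 and 0.0141. CENPA shares 46.1% of its length on its strand with SLC35F6, and CCNB2 shares 20.1% with an unnamed gene. KIF2A and MAD1L1 lie almost wholly inside unnamed genes. Edits in shared sequence cannot be told apart between these genes.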

How the results depend on the processing

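Over 19 results and 107 alternatives, 83 values were within 1.5-fold of the main one (log2 medians within the same distance, shares within the 95% Wilson interval), 23 moved further and 1 reversed. The difference between the members' median EPKM, PABPC IP minus PABPN IP, was -0.00685. It was -0.00415 at a TPM of at least 1, -0.00193 at a TPM of at least 10 and -0.000381 with means, and 0.00779 as the median of paired differences, so its sign should not be relied on. A pseudocount of 0.1 left 3 members 2-fold higher for PABPC and 2 for PABPN, and the shares of protein-coding genes were not taken with it. The count above 0.5 for PABPN IP over Input was 19 of 71 (26.8%) at a TPM of at least 1 (protein-coding genes 30.2%), 19 of 72 (26.4%) with every listed member (protein-coding genes 33.5%) and 6 of 46 without the transport kinesins, beside 12 of 58 (20.7%) and 24.5%. The count below -0.5 for PABPC IP over PABPN IP was 17 of 47 (36.2%) at a TPM of at least 10 (protein-coding genes 25.4%) and 17 of 46 (37.0%) without the transport kinesins, beside 26 of 58 (44.8%) and 31.5%, so part of each lower count is the smaller number of genes. A threshold of 1 gave 3 members above and 5 below for PABPN IP over Input, 0 and 5 for PABPC IP over Input, and 4 and 15 for PABPC IP over PABPN IP. Shares of protein-coding genes were not taken at this threshold, so these counts have no reference. Without centring, PABPN IP over Input had a median of 1.13, with 49 members above 0.5 and 0 below -0.5, PABPC IP over Input had a median of 0.73, with 34 and 0, and 9 members were above 0.5 for PABPC IP over PABPN IP. The medians of protein-coding genes taken away by centring were 1.14, 0.99 and -0.19, which sets these shifts by construction. Without centring, too, no shares of protein-coding genes were taken. The cause of the other moves was not tested. For the rho of coding length, exonic length and every listed member were added after seeing the data and gave -0.62 and -0.77. No paired analysis was possible because replicates were pooled in every column, and leaving out replicates could not be run as the columns are pooled. The files do not give the reads behind each EPKM, so its error is unknown.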
